A study of Mus musculus with 10 samples.

Results

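The autophagy and mitophagy machinery was followed through 37 genes chosen by symbol from a list of its steps, out of 18025 genes measured by messenger RNA sequencing of mouse gastrocnemius, the large and mostly fast muscle of the calf. The list held 8 genes of initiation, 5 of membrane supply, 10 of the conjugation systems, 5 of the ATG8 family, 3 cargo receptors, 4 mitophagy genes and 2 genes of the lysosome side. All 37 were found, and all 37 were among the 12697 genes that passed the filter on low counts. COPD muscle (5 samples, chronic obstructive pulmonary disease modelled with cigarette smoke, as the series title states) was compared with control muscle (5 samples). The labels list both groups as wild-type C57BL/6 mice, 8 weeks old, and give no dose or length of smoke exposure and no sex. Nothing in the labels ties the samples to separate animals. The p-values here set the group difference against the spread between samples, which may not be that between animals.

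Autophagy encloses cytoplasm in a double membrane and delivers it to the lysosome. The ULK1 kinase complex starts the process, a lipid kinase complex around Beclin 1 marks the membrane, and lipid-transfer proteins let it grow. A pair of ubiquitin-like conjugation systems then fix ATG8 proteins (LC3 and GABARAP) to the membrane, where cargo receptors bind them. Mitophagy is the same route for mitochondria, marked by PINK1 or by receptors in the mitochondrial outer membrane. In muscle the pathway is known to be raised in fasting and atrophy and to be needed for the upkeep of fibres.

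Ulk1, Map1lc3b and Atg10 had the smallest p-values of the members, and the 250 bases before their start sites are shown so that their values can be read beside their promoters. The sequences are RefSeq promoter windows of build GRCm38.p6, 5′ to 3′ on the strand of the gene. Ulk1 lies at chr5:110810082-110810331 on the minus strand, Map1lc3b at chr8:121590188-121590437 on the plus strand and Atg10 at chr13:91223988-91224237 on the minus strand. The bases that follow were found near the start of a GENCODE M21 transcript for Ulk1 and Map1lc3b but not for Atg10, whose start site rests here on RefSeq. Capitals mark the GC box, GGGCGG on either strand.
Ulk1: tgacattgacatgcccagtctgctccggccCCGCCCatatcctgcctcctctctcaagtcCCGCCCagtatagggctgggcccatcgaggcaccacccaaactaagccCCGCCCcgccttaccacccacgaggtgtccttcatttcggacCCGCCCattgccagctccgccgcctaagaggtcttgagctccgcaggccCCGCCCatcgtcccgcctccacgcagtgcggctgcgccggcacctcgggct
Map1lc3b: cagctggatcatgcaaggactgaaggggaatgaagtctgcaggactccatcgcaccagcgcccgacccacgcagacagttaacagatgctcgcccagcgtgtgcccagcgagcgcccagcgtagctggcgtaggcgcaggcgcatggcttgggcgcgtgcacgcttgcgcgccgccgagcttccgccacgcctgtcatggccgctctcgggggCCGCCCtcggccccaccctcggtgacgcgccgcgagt
Atg10: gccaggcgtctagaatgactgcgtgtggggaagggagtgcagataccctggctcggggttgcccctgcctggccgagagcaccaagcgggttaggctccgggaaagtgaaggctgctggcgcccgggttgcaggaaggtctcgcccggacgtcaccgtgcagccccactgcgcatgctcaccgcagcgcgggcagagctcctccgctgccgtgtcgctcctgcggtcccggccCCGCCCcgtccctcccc

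The Ulk1 window held 5 GC boxes, and the windows of Map1lc3b and Atg10 held 1 each. Of the 37 members, 30 had a window in the table, 35 windows in all, of which 24 had such a match to a transcript start, and 23 of the 35 held a GC box. The same letters were in 32.7% of all 32851 windows and in 56.4% of the 12980 windows of genes tested here. The E-box CACGTG, also searched on both strands, was in 4 of the 35 windows (Atg3, Bnip3, and Atg5 and Atg7, whose windows had no such match) and in 8.14% of the windows of tested genes. The longer CLEAR motif of TFEB, which holds an E-box, was in 0 of the 35 windows and in 0.493% of the windows of tested genes. The FOXO motif GTAAACA was in 0 of the 35 windows and in 2.12% of the windows of tested genes. A match describes letters in a window, not a binding site, and the absence of one says only that these letters are not there.

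Libraries held 14085854 to 17163590 expected counts in COPD and 15637218 to 17251034 in control, and the smallest count of any member in any library was 69. CPM below are expected counts scaled by library size and TMM factors, means are given ± SD and log2 fold changes, COPD over control, ± SE (n = 5 each unless a library is left out). The 9 markers of fast fibres summed to 209331 to 241994 CPM in COPD and 133384 to 237992 CPM in control. Control replicate 4 was the lowest library, and every control except control replicate 3 lay below all of COPD. Y-linked transcripts (Kdm5d, Ddx3y and Eif2s3y, summed) were at 4, 3 and 3 counts in COPD replicates 1, 4 and 5, at 1118 and 1258 counts in COPD replicates 2 and 3, and at 1441 to 1974 counts in the controls, so the 5 COPD libraries were not all repeats of 1 animal. Summed tendon markers lay at 72.6 to 198 CPM in COPD and 34.2 to 85.5 CPM in control, macrophage markers at 37.6 to 113 CPM in COPD and 71.6 to 126 CPM in control, and slow fibre markers at 95 to 338 CPM in COPD and 139 to 967 CPM in control. Of these lists, 2 of 5 tested tendon genes were higher, 4 of 9 macrophage genes lower and 2 of 7 slow fibre genes lower at an unadjusted p under 0.05, and 0 passed after adjustment by edgeR. Of all genes tested, 7.94% were higher by that rule and 6.64% lower. The part of the fibre, tendon and macrophage differences in the results below was not tested. Fits that take account of Y-linked counts are given below. Every library without such counts was COPD, so those counts are partly confounded with group. In whole muscle, fewer cells of a type and less RNA per cell cannot be told apart.

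Transcript levels spanned a wide range. In TPM, which is scaled per transcript length and so allows genes to be compared, the mean of the group means was at or above 100 TPM for 8 members, from 30 to under 100 for 10, from 10 to under 30 for 12 and under 10 for 7. Pink1, the kinase that marks damaged mitochondria, was at the top with 664, 574, 548, 742 and 749 TPM in COPD replicates 1 to 5, against 709, 939, 714, 807 and 1059 TPM in control replicates 1 to 5. Next in order of level came Map1lc3a (LC3A), Sqstm1 (the cargo receptor p62), Gabarap, Bnip3, Map1lc3b (LC3B), Gabarapl2 and Atg9a. The lowest was Atg4c, one of 4 ATG4 protease genes, at 2.41 to 3.78 TPM over all 10 libraries, with Atg14 and Atg2b just above it. The ranges of neighbours in this order overlapped throughout. Together the 37 genes took 0.305 to 0.324% of all TPM in COPD and 0.3202 to 0.444% in control.

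**Figure D1:**
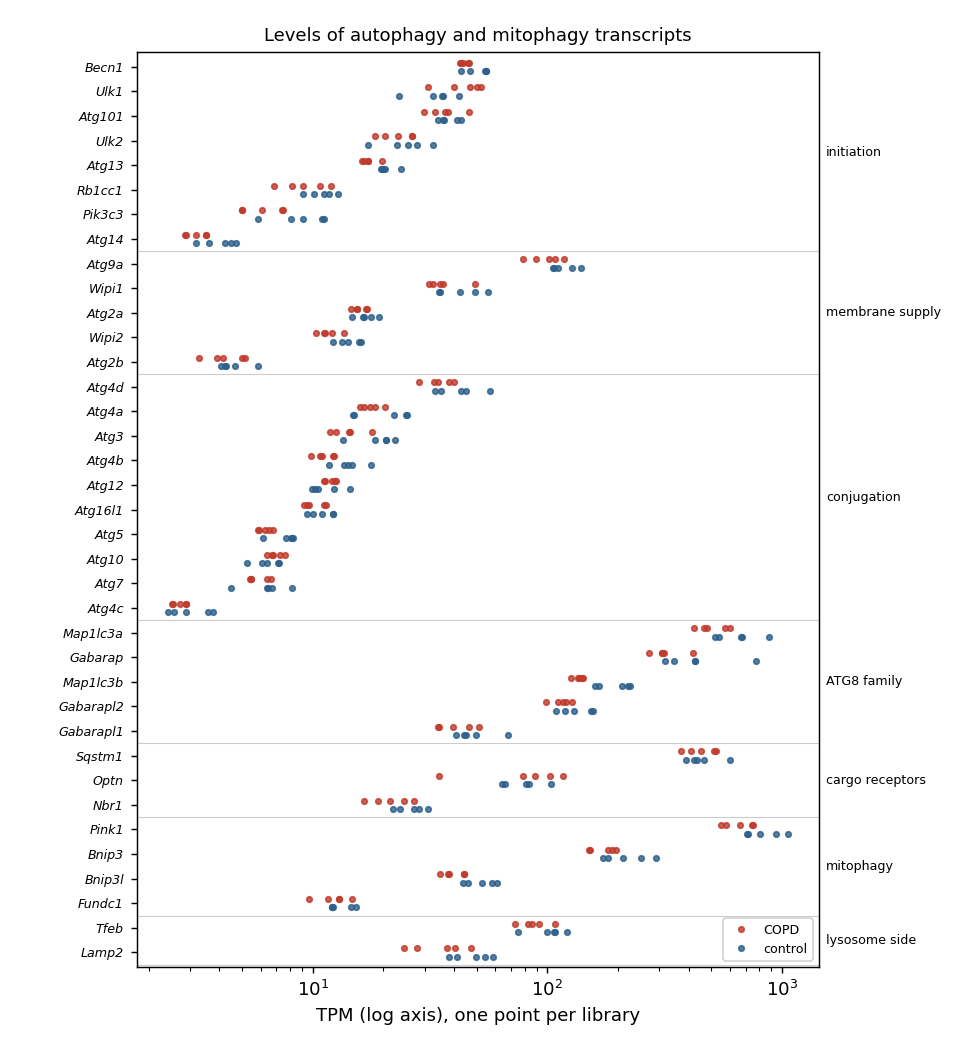
TPM of each member on a log axis, 1 point per library, COPD (red) above control (blue), grouped by step. The 8 members at or above 100 TPM are 4 ATG8 genes, Pink1, Bnip3, Sqstm1 and Atg9a, and 7 members of initiation, membrane supply and conjugation lie under 10 TPM.

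The comparison of COPD with control asks whether the transcripts of this machinery differ in the muscle of the smoke model. None passed: by the quasi-likelihood test of edgeR, 0 of the 37 members had an adjusted p under 0.05, where 0.063% of all genes tested did. At an unadjusted p under 0.05 there were 3 members, or 8.11%, against 14.6% of all genes tested. Ulk1 and Atg10 were the 2 higher ones (5.41% of members and 7.94% of all genes), and Map1lc3b the 1 lower (2.7% and 6.64%). DESeq2 likewise passed 0 members, with the same 3 at an unadjusted p under 0.05. Its shares of all genes were 2.34% and 11.4%, taken over 17925 genes because no low-count filter was set before it.

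On TPM the whole table leaned lower in COPD. There limma on log2(TPM + 1) passed 0 members (0.869% of all 11166 genes kept on that scale). At an unadjusted p under 0.05 it gave 13 members, or 35.1%, against 27% of all genes, and all 13 were lower, as were 24.8% of all genes. The median of all genes was -0.18 on that scale, and that of the members -0.23. With TMM scaling the medians were -0.012 for all genes and -0.029 for the members, of which 15 were above 0 and 22 below.

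With TMM scaling and all 10 libraries, most differences were small as well as uncalled. In 32 of the 37 members (86.5%) the 95% interval of the fold change lay within 1.5-fold in either direction, as it did for 56.5% of all genes tested and for 72% of the 9009 genes within the members' range of mean CPM. The 5 members whose interval reached beyond 1.5-fold were Ulk1, Pik3c3, Atg10, Gabarap and Optn. The median size of the log2 fold change, without regard to sign, was 0.10 among the members and 0.16 over all genes tested. In CPM the groups did not overlap for 1 member, Atg10 (2.7% of members and 2.84% of all genes tested, 1.29% in the same direction). Intervals were taken with TMM scaling and all 10 libraries only. By limma on log2(TPM + 1) the median log2 fold change of the members was lower, at -0.23.

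**Figure D2:**
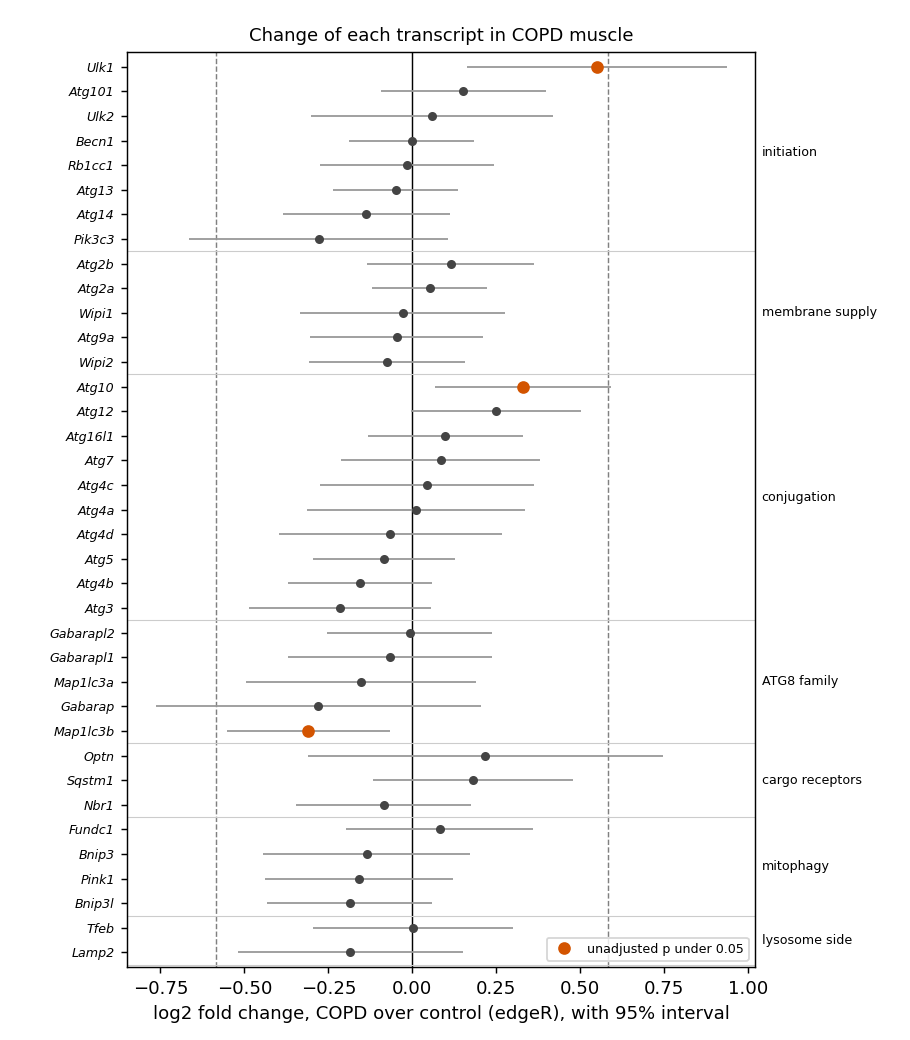
Log2 fold change of each member (edgeR), COPD over control, with its 95% interval, grouped by step, with dashed lines at 1.5-fold in either direction. Ulk1, Atg10 and Map1lc3b (orange) had an unadjusted p under 0.05, and 32 of 37 intervals lie inside the dashed lines.

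Initiation held the member with the largest log2 fold change by edgeR, Ulk1, the kinase that nutrient signals act on to start autophagy. Ulk1 was at 128, 154, 156, 147 and 90.9 CPM in COPD replicates 1 to 5, against 96.5, 94, 98.7, 60.8 and 111 CPM in control replicates 1 to 5. COPD replicates 1 to 4 lay above every control, COPD replicate 5 lay among the controls, and control replicate 4 stood below all others. The means were 135 ± 27.1 CPM in COPD and 92.2 ± 18.7 CPM in control (SD, n = 5 each), and the log2 fold change, 0.55 ± 0.18 (SE), did not pass (edgeR adjusted p = 0.197, DESeq2 adjusted p = 0.0772). Without COPD replicate 5 it was 0.66 ± 0.16 and passed (edgeR adjusted p = 0.0444), as the 1 member among the 3.21% of genes called there. Over the libraries with Y-linked counts, COPD replicates 2 and 3 and the 5 controls, it was 0.76 ± 0.19 (edgeR adjusted p = 0.066). Without control replicate 4 the log2 fold change was lower, at 0.43 (edgeR adjusted p = 0.281). It was 0.40 with library size alone (edgeR adjusted p = 0.191) and 0.37 by limma on log2(TPM + 1) (limma adjusted p = 0.186).

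Ulk2, the close relative that can act in place of Ulk1, was nearly level between the groups. It was at 78.9, 103, 82.6, 93.2 and 64.2 CPM in COPD replicates 1 to 5, against 81.4, 87.3, 82.3, 54.1 and 101 CPM in control replicates 1 to 5 (log2 fold change 0.058 ± 0.17, edgeR adjusted p = 0.907). Control replicate 4 and COPD replicate 5 were the lowest libraries for Ulk2. The ratio of Ulk1 to Ulk2 within a library does not depend on how libraries are scaled, and it was picked out after the values had been seen, so it is given with no test. In TPM this ratio was 1.97, 1.77, 2.27, 1.90 and 1.69 in COPD replicates 1 to 5, against 1.41, 1.28, 1.42, 1.36 and 1.29 in control replicates 1 to 5. All 5 COPD libraries, COPD replicate 5 included, lay above all 5 controls, with mean ratios of 1.92 ± 0.223 in COPD and 1.35 ± 0.064 in control (SD, n = 5 each). In expected counts the ratio was 1.41 to 1.89 in COPD and 1.08 to 1.1995 in control. Of all genes tested, 2.84% did not overlap between the groups in CPM, and no such share was taken over gene pairs.

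The other 6 genes of initiation had log2 fold changes between -0.28 and 0.15, and each had an unadjusted p above 0.05 by edgeR. The partners of ULK1 in its complex are the scaffold encoded by Rb1cc1 (log2 fold change -0.015 ± 0.12), Atg13 (-0.05 ± 0.086) and Atg101 (0.15 ± 0.11). Becn1, the core of the lipid kinase complex, had the fold change nearest to 0 of the step, at 51.9 to 61.8 CPM in COPD and 52.7 to 61.3 CPM in control, with a 95% interval from -0.19 to 0.19 in log2. Atg14, which steers that complex to autophagy, was at 6.73 to 7.46 CPM in COPD and 6.86 to 8.67 CPM in control (-0.14 ± 0.11). Pik3c3, the lipid kinase VPS34, was at 20.8 to 27.7 CPM in COPD and 20.01 to 38.7 CPM in control (-0.28 ± 0.18, edgeR adjusted p = 0.505). Control replicates 4 and 5 were the libraries above 30 CPM for Pik3c3.

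Membrane supply was close to level. Its 5 genes had log2 fold changes from -0.074 to 0.11, each with an unadjusted p above 0.05 by edgeR. Atg2b, which transfers lipid into the growing membrane, had the smallest p. It was at 17.7, 21.5, 18.2, 20.9 and 22.7 CPM in COPD replicates 1 to 5, against 19.2, 17, 18, 16.6 and 22.5 CPM in control replicates 1 to 5 (means 20.2 ± 2.14 CPM in COPD and 18.7 ± 2.36 CPM in control, log2 fold change 0.11 ± 0.11, edgeR adjusted p = 0.692). The groups overlapped, and exons of Atg2b overlap those of Gskip on the opposite strand. Its relative Atg2a was at 43.2 to 48.9 CPM in COPD and 43 to 46.8 CPM in control (log2 fold change 0.052 ± 0.079), with a 95% interval from -0.12 to 0.22. Atg9a, the membrane protein of the vesicles that seed the structure, was the most abundant gene of the step in TPM (log2 fold change -0.046 ± 0.12). Wipi1 and Wipi2, which bind the lipid mark, were at -0.029 ± 0.14 and -0.074 ± 0.11.

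Among the conjugation genes, Atg10 and Atg12 had the highest log2 fold changes. Atg10, the E2-like enzyme that joins ATG12 to ATG5, was at 8.49, 7.10, 7.42, 6.65 and 6.61 CPM in COPD replicates 1 to 5, against 6.32, 5.33, 5.32, 5.71 and 6.13 CPM in control replicates 1 to 5. Every COPD library lay above every control in CPM. The means were 7.26 ± 0.769 CPM in COPD and 5.76 ± 0.458 CPM in control (SD, n = 5 each), and the log2 fold change, 0.33 ± 0.12, did not pass (edgeR adjusted p = 0.244, DESeq2 adjusted p = 0.222). In TPM the groups overlapped, at 6.37 to 7.64 TPM in COPD and 5.26 to 7.16 TPM in control.

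Atg12, the ubiquitin-like protein that ATG10 conjugates, was at 19.3, 21.2, 19.2, 19.2 and 16.5 CPM in COPD replicates 1 to 5, against 16.9, 13.5, 16.6, 14 and 19 CPM in control replicates 1 to 5. COPD replicates 1 to 4 lay above the highest control and COPD replicate 5 below it (log2 fold change 0.25 ± 0.12, edgeR adjusted p = 0.35). It was 0.10 with library size alone and 0.057 by limma on log2(TPM + 1). ATG5, to which ATG12 is joined, and its partner ATG16L1 had transcripts with log2 fold changes of -0.084 ± 0.10 and 0.10 ± 0.11. The shared E1-like enzyme gene Atg7 was at 0.085 ± 0.14, and Atg3, the E2-like enzyme of the ATG8 branch, at -0.21 ± 0.12. The 4 ATG4 protease genes, which process ATG8 proteins, had log2 fold changes from -0.16 (Atg4b) to 0.043 (Atg4c), each with an unadjusted p above 0.05 by edgeR.

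The ATG8 family had log2 fold changes below 0 for 5 of 5 genes with TMM scaling, where 48% of all genes tested were above 0. The median was that of Map1lc3a, -0.15 ± 0.16 (edgeR adjusted p = 0.706). Without control replicate 4, its highest library at 488 CPM, Map1lc3a was at -0.034, and Gabarapl2 was above 0 at 0.049. Gabarapl2 was also just above 0 by DESeq2 and with RLE scaling, and Map1lc3a above 0 in both fits that take account of Y-linked counts. Map1lc3b, the LC3 form most used as a marker of autophagosomes, was at 243, 226, 197, 212 and 205 CPM in COPD replicates 1 to 5, against 216, 294, 258, 302 and 272 CPM in control replicates 1 to 5. Control replicate 1 lay among the COPD libraries and the other 4 controls lay above all of COPD. The means were 217 ± 18.1 CPM in COPD and 269 ± 34.3 CPM in control (SD, n = 5 each), and the log2 fold change, -0.31 ± 0.11, did not pass (edgeR adjusted p = 0.239, DESeq2 adjusted p = 0.141).

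In TPM the groups did not overlap for Map1lc3b, at 126 to 142 TPM in COPD and 159 to 224 TPM in control, and it was the 1 member of 37 (2.7%) lower without overlap on that scale, against 5.62% of all genes. limma on log2(TPM + 1) gave -0.51 (adjusted p = 0.0565), or -0.33 relative to the median of all genes. Exons of Map1lc3b overlap those of Zcchc14 on the opposite strand. Its expected counts were not whole in any library, so its values carry the uncertainty of reads shared with other genes.

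LC3A and GABARAP transcripts made up most of the family. The 5 genes summed to 1179, 1191, 1156, 1045 and 1036 TPM in COPD replicates 1 to 5, against 1191, 1491, 1172, 2071 and 1533 TPM in control replicates 1 to 5. Map1lc3a took 45.1 ± 5.07% of that sum in COPD and 44.1 ± 1.36% in control. Map1lc3b took 12.2 ± 1.11% of that sum in COPD and 13.3 ± 1.502% in control (SD, n = 5 each). Gabarap took 25.7 to 35.3% in the COPD libraries and 27 to 37.4% in the control libraries. For these 3 genes the mean shares of the groups differed by less than the larger SD. Gabarap was at 316, 228, 218, 207 and 180.2 CPM in COPD replicates 1 to 5, against 209.6, 255, 219, 464 and 248 CPM in control replicates 1 to 5 (log2 fold change -0.28 ± 0.22, edgeR adjusted p = 0.61). Control replicate 4 was the highest library, and without it the log2 fold change was -0.018 (edgeR adjusted p = 0.974). Gabarapl1 was at 41.3 to 55.1 CPM in COPD and 39.3 to 63.7 CPM in control (-0.067 ± 0.14), and Gabarapl2 at 59.3 to 79.1 CPM in COPD and 62.1 to 81.8 CPM in control (-0.0076 ± 0.11).

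**Figure D3:**
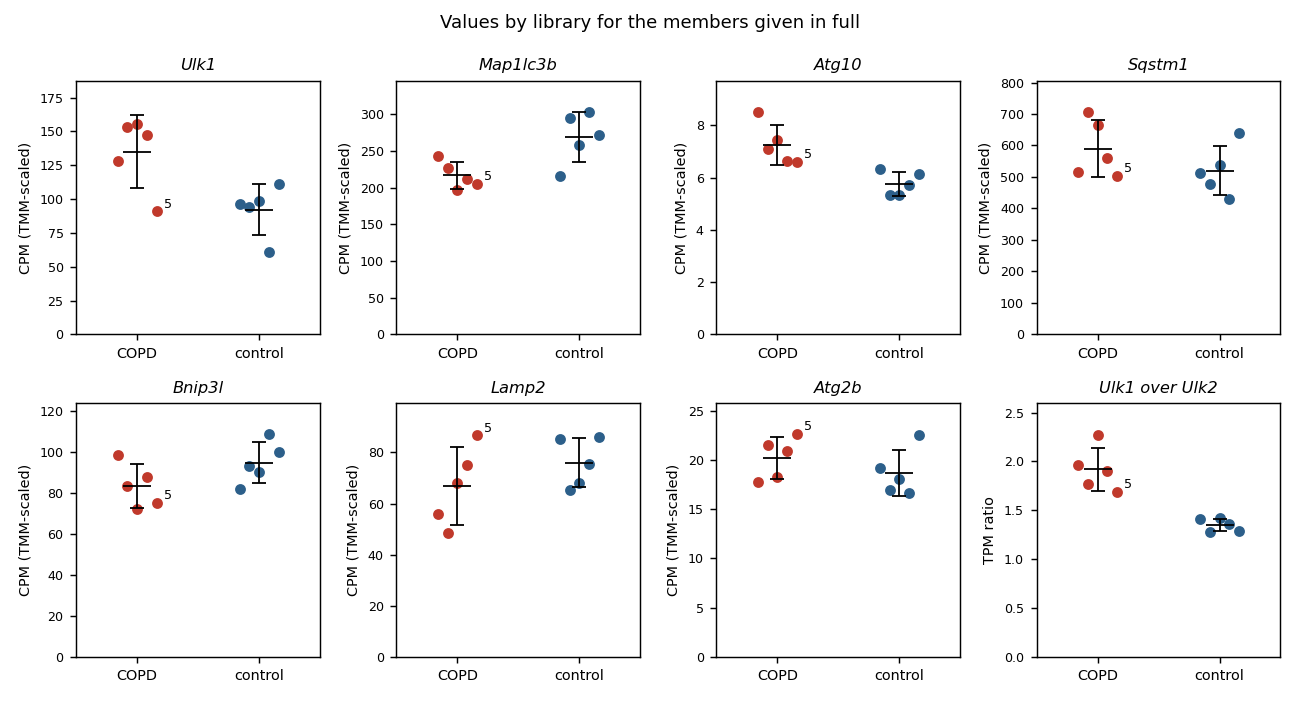
Values by library of the 7 members with the smallest p of their step (TMM-scaled CPM) and the TPM ratio of Ulk1 to Ulk2, COPD left of control, replicates 1 to 5 from left to right, COPD replicate 5 marked, with mean and SD. Ulk1 in COPD replicate 5 sits among the controls at 90.9 CPM, while the Ulk1 to Ulk2 ratio of all 5 COPD libraries, 1.69 to 2.27, lies above that of all 5 controls, 1.28 to 1.42. The ratio was picked out after the values had been seen and was not tested.

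Sqstm1 varied from library to library in both groups, and Optn more within COPD than within control. Sqstm1, which links ubiquitin-tagged cargo to ATG8 proteins, was at 515, 705, 666, 560.2 and 503 CPM in COPD replicates 1 to 5, against 514, 476, 538, 431 and 639.6 CPM in control replicates 1 to 5. COPD replicates 2 and 3 lay above all controls and the other 3 among them (means 589.8 ± 90.8 CPM in COPD and 519.7 ± 78.3 CPM in control, log2 fold change 0.18 ± 0.14, edgeR adjusted p = 0.582). Exons of Sqstm1 overlap those of Mrnip on the opposite strand. Optn, a receptor that takes part in mitophagy, had the widest COPD range of the 3 receptors in proportion to its level. It was at 52.4, 152, 162, 109 and 122 CPM in COPD replicates 1 to 5, against 84.1, 102, 92.5, 127 and 108 CPM in control replicates 1 to 5 (log2 fold change 0.22 ± 0.24, edgeR adjusted p = 0.732). COPD replicate 1 was the lowest of all 10 libraries for Optn, and COPD replicates 2 and 3 were the highest. The log2 fold change of Optn was 0.41 without COPD replicate 1 (edgeR adjusted p = 0.278), 0.12 without COPD replicate 2 and 0.10 without COPD replicate 3.

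COPD replicates 2 and 3 are the COPD libraries with Y-linked counts. Over the libraries with such counts the log2 fold change of Sqstm1 was 0.41 ± 0.16 (edgeR adjusted p = 0.188) and that of Optn 0.62 ± 0.16 (edgeR adjusted p = 0.0707). There 0 of 37 members passed, where 3.7% of all genes did. Sqstm1, Optn and Ulk1 were the 3 members (8.11%) with an unadjusted p under 0.05, against 20.4% of all genes. With all 10 libraries and a term for Y-linked counts 0 members passed, where 1.7% of all genes did. Nbr1, the other receptor, was at 52.9 to 76.3 CPM in COPD and 59.5 to 76.1 CPM in control (log2 fold change -0.085 ± 0.12 with all libraries).

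The mitophagy genes each had an unadjusted p above 0.05 by edgeR. Bnip3l (NIX), a receptor in the outer mitochondrial membrane, had the smallest. It was at 99, 83.4, 72.1, 87.9 and 75.4 CPM in COPD replicates 1 to 5, against 82.2, 93.5, 90.2, 109 and 100.3 CPM in control replicates 1 to 5, and the groups overlapped (means 83.5 ± 10.6 CPM in COPD and 95 ± 10.1 CPM in control, log2 fold change -0.19 ± 0.11, edgeR adjusted p = 0.482). Its relative Bnip3 was at 162 to 223 CPM in COPD and 165 to 269 CPM in control (-0.14 ± 0.14). Pink1 was at 822 to 1088 CPM in COPD and 923 to 1329 CPM in control (-0.16 ± 0.13). Fundc1, a further receptor, was at 16.3 to 24.9 CPM in COPD and 18.9 to 24.3 CPM in control (0.082 ± 0.13).

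On the lysosome side, Tfeb encodes a transcription factor of lysosomal and autophagy genes and Lamp2 a protein of the lysosomal membrane. Tfeb was at 96.6 to 162 CPM in COPD and 104 to 144 CPM in control, with a 95% interval of the log2 fold change from -0.30 to 0.30. Lamp2 was at 55.8, 48.6, 68.1, 75.1 and 86.6 CPM in COPD replicates 1 to 5, against 85.3, 65.1, 68.2, 75.4 and 85.9 CPM in control replicates 1 to 5. COPD replicates 1 and 2 lay below all controls and COPD replicate 5 above them (means 66.9 ± 15.1 CPM in COPD and 76 ± 9.53 CPM in control, log2 fold change -0.18 ± 0.15, edgeR adjusted p = 0.631). The log2 fold change of Lamp2 was -0.089 without COPD replicate 2 and -0.30 without COPD replicate 5.

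Across the 37 genes, each COPD library held members outside the controls. Of the 5 COPD libraries, each had 5 to 10 members above all 5 controls (13.5 to 27%, against 19.7 to 23.7% of all genes tested). Each had 3 to 11 members below all 5 controls (8.11 to 29.7%, against 19.5 to 26.1% of all genes tested). Relative to the control mean, the median member lay between -0.092 and 0.02 in log2 CPM in the COPD libraries and between -0.087 and 0.14 in the controls.

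**Figure D4:**
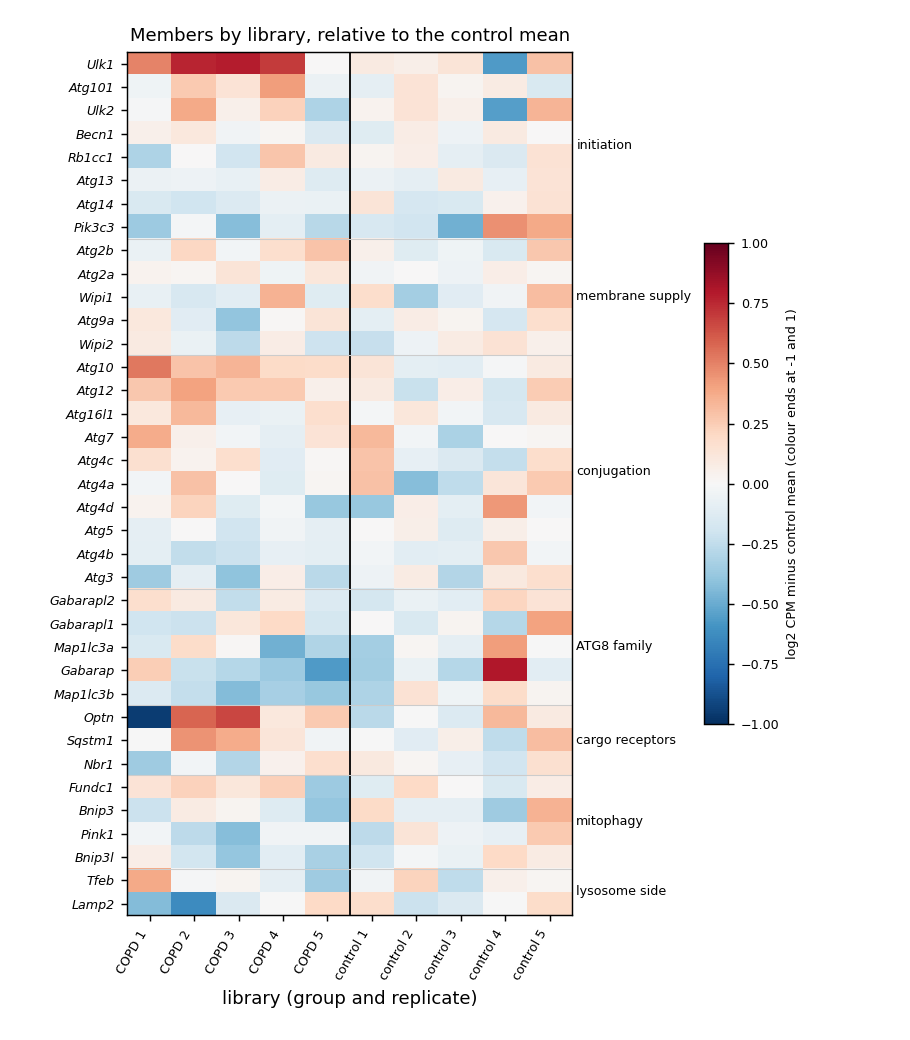
Log2 CPM (with 0.5 added) of each member in each library minus the mean of the 5 controls, COPD libraries left of control libraries, red above and blue below, with the colour ending at -1 and 1. Ulk1 is high in COPD replicates 1 to 4, Optn is low in COPD replicate 1, and Gabarap is high and Ulk1 low in control replicate 4.

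Further genes of the pathway were taken from a list of 67, and all 67 were tested. They were upstream kinases, partners of the lipid kinase, genes of the growing membrane, fusion, lysosomal and PARKIN-side genes, other receptors and regulators. By edgeR 1 of the 67 was higher and 0 lower at an adjusted p under 0.05, where 0.0551% of all genes tested were higher and 0.00788% lower. There were 6 with an unadjusted p under 0.05, 3 in each direction (8.96%, against 14.6% of all genes tested). The median log2 fold change was -0.0064. The called gene was Trp53inp1, a p53 target whose protein binds ATG8 proteins, and its call was known when the list was drawn up. It was at 11.5, 13.9, 13.2, 12.5 and 14.3 CPM in COPD replicates 1 to 5, against 6.49, 6.27, 6.85, 8.15 and 8.07 CPM in control replicates 1 to 5 (log2 fold change 0.87 ± 0.12, edgeR adjusted p = 0.0251). The groups did not overlap, as for 1.29% of all genes tested in the same direction. Leaving out COPD replicate 2, COPD replicate 4 or any 1 of the 5 controls ended the call (adjusted p from 0.0532 to 0.0835), while the log2 fold change stayed between 0.82 and 0.92 over all 10 libraries left out in turn. The call was also lost with library size alone (0.71), by limma on log2(TPM + 1) (0.49) and in the other limma fits, and Trp53inp1 passed in 10 of 22 alternatives.

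Its relative Trp53inp2, an autophagy factor known to promote protein breakdown in muscle, was at 363, 655, 572, 546 and 347 CPM in COPD replicates 1 to 5, against 356, 306, 322, 306 and 356 CPM in control replicates 1 to 5. COPD replicates 2 to 4 stood well above the controls, COPD replicate 1 just above them and COPD replicate 5 among them (log2 fold change 0.59 ± 0.17, edgeR adjusted p = 0.154, DESeq2 adjusted p = 0.034). It passed by edgeR without COPD replicate 5 (0.70, adjusted p = 0.038), where 3.21% of all genes did. Over the libraries with Y-linked counts it passed too (0.91, edgeR adjusted p = 0.00692), where 3.7% of all genes did. That fit holds COPD replicates 2 and 3, the highest libraries for Trp53inp2, against the 5 controls. With all 10 libraries and a term for Y-linked counts, Trp53inp2 also passed (0.90, edgeR adjusted p = 0.0299), where 1.7% of all genes did. In all, Trp53inp2 passed in 4 of 22 alternatives, with log2 fold changes from 0.35 (limma on log2(TPM + 1)) to 0.91 and adjusted p up to 0.31.

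Atp6v1b2, a subunit of the pump that acidifies lysosomes, was at 58.5, 62.9, 63.5, 57.2 and 54.3 CPM in COPD replicates 1 to 5, against 49.2, 41.2, 46.5, 44.3 and 48.8 CPM in control replicates 1 to 5. The groups did not overlap (log2 fold change 0.37 ± 0.088, edgeR adjusted p = 0.102, DESeq2 adjusted p = 0.00452). Of all genes tested, 1.29% were higher without overlap. Without COPD replicate 5 Atp6v1b2 passed by edgeR (0.40, adjusted p = 0.0394), where 3.21% of all genes did. DESeq2 and the fit without COPD replicate 5 were the 2 of 22 alternatives in which Atp6v1b2 passed, and its log2 fold change was 0.21 with library size alone (adjusted p = 0.222) and 0.16 by limma on log2(TPM + 1) (adjusted p = 0.304). Of the 18 lysosomal genes in the list, 8 had a log2 fold change above 0, and 1, Atp6v1b2, had an unadjusted p under 0.05.

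The 3 genes with lower values at an unadjusted p under 0.05 did not pass by edgeR. Prkaa2, the catalytic AMPK subunit typical of muscle, was at 149 to 166 CPM in COPD and 174 to 234 CPM in control, without overlap (log2 fold change -0.32 ± 0.10, edgeR adjusted p = 0.189). Lower values without overlap were seen in 1.55% of all genes tested. Akt1, a kinase of insulin signalling that restrains autophagy, was at 78.1 to 101 CPM in COPD and 85.3 to 226 CPM in control (-0.62 ± 0.23, edgeR adjusted p = 0.259), with the highest value in control replicate 4. Without that library the log2 fold change of Akt1 was -0.31 (edgeR adjusted p = 0.356). Uvrag, a partner of Beclin 1, was at 8.06 to 10.2 CPM in COPD and 9.82 to 14.6 CPM in control (-0.31 ± 0.13, edgeR adjusted p = 0.305).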

How the data were processed

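Per the labels' protocols, messenger RNA of 10 gastrocnemius samples was sequenced; sample titles gave the groups and replicate numbers. The authors deposited expected counts (estimates that need not be whole) and TPM, both per gene symbol. The submitters' processing notes list the build mm9 and the tools RSEM 1.2.12, Bowtie2 2.2.5, DESeq2 1.4.5 and HISAT2 2.0.4, without their roles. No source used here states whether strand was used in counting. Expected counts of 6 members (Becn1, Pik3c3, Atg4c, Atg4d, Map1lc3b and Tfeb) were not whole in all 10 libraries. Exons of 6 (Atg2b, Atg4d, Atg9a, Becn1, Map1lc3b and Sqstm1) overlap another gene on the opposite strand in the GENCODE M21 annotation.

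Rounded expected counts were filtered with filterByExpr, scaled by TMM and tested with edgeR 4.0.16 in R 4.3.3 (glmQLFit and glmQLFTest), with Benjamini-Hochberg adjustment over all 12697 genes and a threshold of 0.05. The SE is the log2 fold change over the square root of F, and 95% intervals use the t distribution. Alternatives were other filters and scalings, DESeq2 1.42.0, limma 3.58.1 on log2(TPM + 1) and log2(TPM + 0.1), a replicate block, a term for Y-linked counts (at least 1 CPM), only the libraries with such counts, and each library left out. Chi-square per degree of freedom between pairs of libraries was 16.9 to 115, so none was taken for a repeat of another. The code was tested on simulated data.

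Members and lists were chosen with earlier results of these data known. The members described in full had the smallest p of their step or an unadjusted p under 0.05, and other pathway genes were named at an unadjusted p under 0.05. Library values of Ulk2, Atg12, Gabarap, Optn and Pink1 were added after they were seen. Promoter windows, matched by symbol, are of another build than mm9 and served for their sequence.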

Additional observations from a re-analysis of the deposited data

Results flagged for a closer look

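In 4 of the 74 groups of 5 libraries (37 members in COPD and in control), 1 library stood apart from the other 4 by more than 0.71 of the range of the group, where chance alone gives about 5% of groups. Wipi1 was at 54.8 CPM in COPD replicate 4, against 38.3 to 40.8 CPM in the other 4 COPD libraries. Fundc1 was at 16.3 CPM in COPD replicate 5, against 22.9 to 24.9 CPM in the other COPD libraries. Gabarap was at 464 CPM in control replicate 4, against 209.6 to 255 CPM in the other 4 controls. Atg4b was at 30.7 CPM in the same library, against 23.5 to 24.9 CPM in the other controls.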

How the results depend on the processing

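Members past the threshold numbered 0 by edgeR with all libraries and under 21 of the 22 alternatives, and 1 (Ulk1) without COPD replicate 5, a range of 0 to 1 when single libraries were left out. Over the 22 alternatives the log2 fold change ran from 0.37 to 0.76 (adjusted p 0.0444 to 0.356) for Ulk1, from -0.51 to -0.26 (adjusted p 0.0565 to 0.454) for Map1lc3b and from 0.11 to 0.37 (adjusted p 0.137 to 0.571) for Atg10. The log2 ratio of Ulk1 to Ulk2 differed by 0.50 in TPM and by 0.44 to 0.55 when single libraries were left out; the alternatives for this ratio and for the other pathway genes were chosen after seeing the data. Genes past the threshold numbered 8, but 17 with no low-count filter, 420 by DESeq2, 97 by limma on log2(TPM + 1), 63 on log2(TPM + 0.1), 2 on log2(TPM + 1) with no filter, 216 with a term for Y-linked counts and 488 over the libraries with such counts. Leaving out single libraries gave 0 to 410: 0 by edgeR without COPD replicate 2 (1510 at an unadjusted p under 0.05), 410 without COPD replicate 5, 5 without COPD replicate 4, and 1 to 3 without a control. With the replicate block 7 genes and 0 members passed, and Trp53inp1 did not, with its log2 fold change still at 0.87 (adjusted p = 0.0865). Same-numbered libraries had correlations of deviations from -0.141 to 0.0435, and 0 of 5 COPD libraries correlated best with their own number. No pairing by number was detected, but 5 numbers are too few to exclude one. Trp53inp1 also did not pass with library size alone or by limma on TPM (adjusted p from 0.0503 to 0.092).

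The median of all genes was -0.17 with library size alone and -0.18 on log2(TPM + 1), against -0.012 with TMM, and 16, 14 and 17 members lay above it. Log2 fold changes that turned sign with library size alone were Ulk2 -0.093, Atg101 -0.0057, Atg2a -0.11, Atg2b -0.0403, Atg4a -0.15, Atg4c -0.11, Atg7 -0.077, Atg16l1 -0.059, Fundc1 -0.073 and Tfeb -0.16. On log2(TPM + 1), with or without a filter, they were Ulk2 -0.12, Atg101 -0.061, Atg2a -0.083, Atg2b -0.089, Atg4a -0.16, Atg4c -0.11, Atg7 -0.10, Atg16l1 -0.0999, Sqstm1 -0.024, Optn -0.0055, Fundc1 -0.10 and Tfeb -0.20. On log2(TPM + 0.1) they were Ulk2 -0.12, Atg101 -0.063, Atg2a -0.087, Atg2b -0.11, Atg4a -0.17, Atg4c -0.14, Atg7 -0.11, Atg16l1 -0.11, Sqstm1 -0.024, Optn -0.0071, Fundc1 -0.11 and Tfeb -0.20. With a term for Y-linked counts they were Becn1 0.033, Atg4d 0.036, Atg7 -0.0037, Map1lc3a 0.077, Bnip3 0.033 and Tfeb -0.0016, and over the libraries with such counts Becn1 0.043, Atg4d 0.045, Map1lc3a 0.086 and Bnip3 0.043. RLE scaling gave Becn1 0.0066 and Gabarapl2 0.000604, DESeq2 Becn1 0.0059 and Gabarapl2 0.00036, upper-quartile scaling Atg4a -0.018 and Tfeb -0.027, no low-count filter Tfeb -0.00899 and the replicate block Tfeb -0.011. Leaving out single libraries turned the sign of Atg4a (-0.084 to 0.089), Atg4c (-0.019 to 0.13), Atg4d (-0.15 to 0.0597), Atg9a (-0.091 to 0.041), Becn1 (-0.032 to 0.033), Gabarapl1 (-0.14 to 0.0498), Gabarapl2 (-0.052 to 0.059), Rb1cc1 (-0.098 to 0.052), Tfeb (-0.11 to 0.0804), Ulk2 (-0.057 to 0.15) and Wipi1 (-0.13 to 0.056). Without turning sign, single libraries moved Pik3c3 (-0.39 to -0.15), Sqstm1 (0.11 to 0.27), Bnip3l (-0.25 to -0.13) and Atg2b (0.0701 to 0.19). The cause was not tested. Counts as low as 69 in a library limit what can be seen for the lowest members.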
